A study of Homo sapiens with 40 samples.

Results

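H3K27me3, the repressive histone mark written by Polycomb complexes, was compared at day 21 between cells in which the histone methyltransferase NSD2 carries a degradation tag and their untagged parental line, both kept with the same compound. The comparison used 6 of the 40 samples of the series, all CUT&Tag libraries, in which an antibody directs a transposase to the mark so that the DNA beside it is cut and sequenced. They are 6 of the 30 H3K27me3 libraries, chosen from the labels alone. Every library came from KMS-11, an established myeloma line of human origin with the t(4;14) translocation, which drives overexpression of NSD2. The 4 libraries of the degraded state came from the clones NSD2dTAG#8 and NSD2dTAG#11 (2 each), with the dTAG knocked in at NSD2 and dTAGV-1 given for 21 days. The 2 libraries of the other group came from the parental line used for the engineering (genotype WT) under dTAGV-1 for 21 days. The labels state 100 nM dTAGV-1 for the NSD2dTAG cells and no dose for the parental line. Each clone is a single clone, so 2 clones stand for the tag. The labels do not say that the parental libraries come from separate cultures, so p-values describe only a spread among libraries that is possibly technical. Context came from the other H3K27me3 libraries, 2 per group. These were the same 3 lines at day 0 (no compound) and at 7 and 14 days of dTAGV-1, and the untreated knockout clones NSD2KO#3 and NSD2KO#12 (genotype NSD2 KO) with the parental line NSD2KOparental (WT).

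dTAGV-1 binds the dTAG domain and the VHL ubiquitin ligase, which leads to degradation of the tagged protein, while an untagged protein is left alone. The parental line under the compound therefore carries the effect of compound and culture time, but not of the tag. NSD2 places H3K36me2 over broad stretches of genes and intergenic DNA, and a nucleosome with that mark is a poor substrate for the Polycomb enzyme EZH2. Polycomb-marked chromatin in differentiated cells is usually found at CpG-rich promoters of developmental genes, and it can spread thinly over inactive DNA. The question was where H3K27me3 peaks cover more or less of the genome once NSD2 has been degraded for 21 days. Peak lists show no protein level, so the loss of NSD2 itself was not checked here.

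NSD2 itself (chromosome 4, 1871393 to 1982192, on hg38) carried next to no peak. The covered part of the gene was 0.975% and 0% in the parental line, 0.417% and 0% in clone 8, and 0% and 0% in clone 11 (replicates 1 and 2 in this order throughout). FGFR3, the receptor gene beside it that the translocation also activates, was covered by 55.3% and 14.3% in the parental line, 43.5% and 31.0% in clone 8, and 38.0% and 4.67% in clone 11. The groups overlapped at FGFR3 and the difference was -5.52 percentage points (SE 13.4; limma adjusted p = 0.884). CCND2, a cyclin gene of the myeloma cell cycle, was covered by 0% and 0% in the parental line, 0.677% and 1.33% in clone 8, and 3.17% and 0% in clone 11. Neither NSD2 nor CCND2 reached the mean coverage of 1% over the 30 libraries that was needed for a test. The 10 genes chosen as plasma cell markers had a mean coverage of 4.07% to 10.3% in the clone libraries and 3.07% to 7.72% in the parental ones, and 0 of the 7 that could be tested were called by limma. The mark says nothing direct about expression, so these genes do not test the cell type.

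The parental lists held 107673 and 52296 peaks over 99.8 and 55.7 Mb, the lists of clone 8 180785 and 118995 peaks over 153 and 111 Mb, and those of clone 11 154934 and 96915 peaks over 134 and 83.4 Mb. The clones averaged 120 Mb ± 29.9 of called length (SD, n = 4) and the parental line 77.8 Mb ± 31.2 (SD, n = 2), so the means had a ratio of 1.55. The groups overlapped, since clone 11 replicate 2 lay below parental replicate 1 (exact two-sided permutation p = 0.2, where 0.0667 is the smallest value that 4 against 2 libraries allow). The lists give no depth. The caller's background pileup, an estimate of depth in fragments per position, was 3.26 and 1.48 in the parental line, 2.84 and 2.35 in clone 8, and 2.52 and 1.61 in clone 11, so replicate 1 was the deeper one in each of the 3 groups. Its group means had a ratio of 0.984. Called length per unit of pileup was 51.5 Mb ± 2.89 in the clones (n = 4) and 34.1 Mb ± 4.98 in the parental line (n = 2), without overlap (exact p = 0.0667, or 0.2 after adjustment over 6 measures).

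The added length lay in weak peaks. Peaks with a −log10 q between 1 and 3 covered 63.1 to 84.7 Mb in the clones and 26.9 to 30.2 Mb in the parental line, a ratio of means of 2.66 with no overlap (exact two-sided permutation p = 0.0667, unadjusted and chosen after the data had been seen). Peaks at a −log10 q of at least 5 covered 20.9 Mb ± 10.6 (SD, n = 4) in the clones and 32.5 Mb ± 28.1 (SD, n = 2) in the parental line (exact p = 0.533, adjusted p = 0.533 over 6 measures). The strongest class, at a −log10 q of at least 10, covered 2.72 to 15.1 Mb in the clones against 26.9 and 3.92 Mb. Strong peaks thus gave no higher length in the clones, and parental replicate 1, the deepest library, held the most of them.

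The clones' peaks also lay less often inside protein-coding genes. The share of called length inside genes was 50.9% and 51.2% in the parental line, 43.9% and 44.4% in clone 8, and 44.1% and 45.2% in clone 11. All 4 clone libraries lay below both parental ones, by 6.67 percentage points between the means (exact two-sided permutation p = 0.0667, or 0.2 after adjustment over 6 measures). Length outside genes averaged 67.0 Mb in the clones and 38.1 Mb in the parental line (exact p = 0.2, adjusted p = 0.4). Length inside genes averaged 53.3 and 39.7 Mb (exact p = 0.4, adjusted p = 0.533), and median peak width 650 and 705 bp (exact p = 0.533, adjusted p = 0.533). The groups overlapped in each of these last 3 measures.

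**Figure D1:**
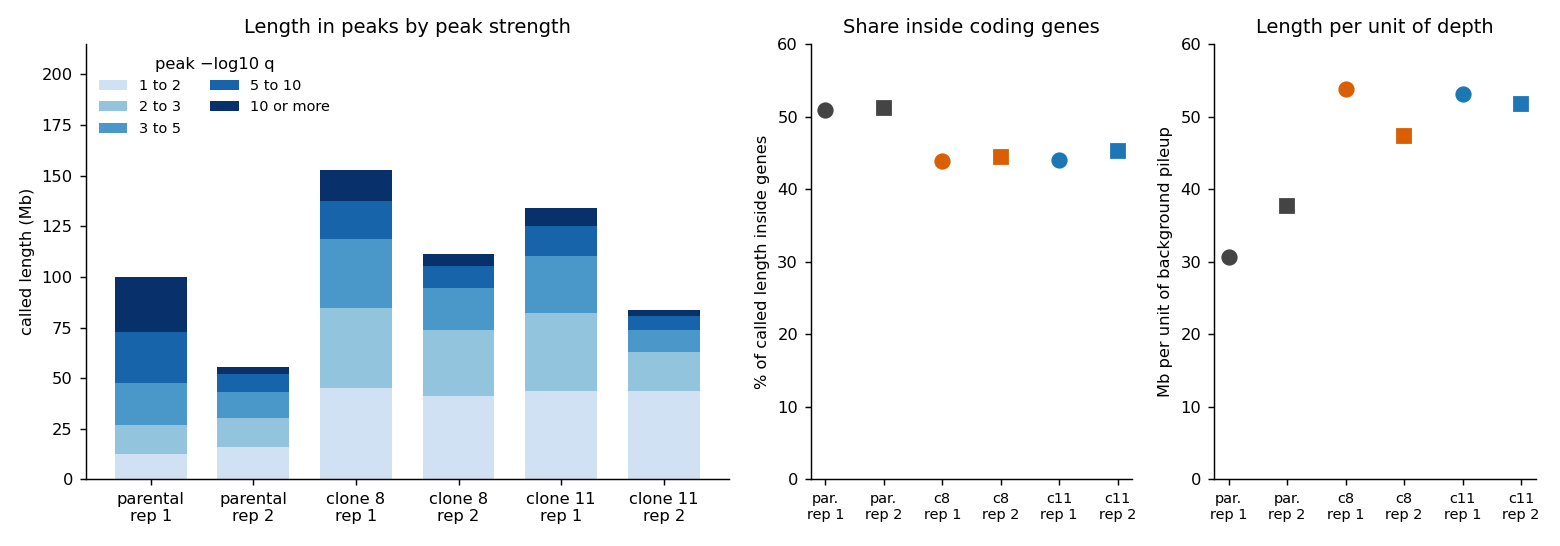
Called H3K27me3 length in Mb for each of the 6 libraries of day 21, stacked by the −log10 q of the peaks (left), the percent of that length inside protein-coding genes (middle), and Mb per unit of background pileup (right); circles are replicate 1 and squares replicate 2. The 2 lightest segments, peaks of −log10 q from 1 to 3, sum to 63.1 Mb or more in each clone library and to at most 30.2 Mb in the parental ones, and the middle and right panels separate the groups.

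The lists were nested only in part. On average 71.5% of the parental peaks overlapped a peak of a clone list by at least 1 bp (49.8% to 86.6% over 8 pairs of lists). In the other direction, 41.0% of the clone peaks overlapped a parental one (26.0% to 54.2%), while 63.9% overlapped a peak of the other clone and 63.1% a peak in the second list of the same clone. With a reciprocal overlap of 50% the first 2 shares were 44.3% and 25.1%. Since a longer list is hit more often, the direction of these shares moves with list length.

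Across 13975 of the 19447 protein-coding genes, limma called 1540 with a higher covered percent in the clones (gained, 11% of the tested genes) and 152 with a lower one (lost, 1.09%), at adjusted p under 0.05. The median difference over all tested genes was 0.53 percentage points, and over the gained genes 6.95. In 1481 of the gained genes all 4 clone libraries lay above both parental ones, a pattern seen in 20.4% of all tested genes. In 139 of the lost genes all 4 lay below, against 6.32% of all tested genes. Of the gained genes 275 had no peak in either parental library, and of the lost genes 21 had none in any clone library. Gained genes were long, with a median of 80.3 kb against 20.7 kb over all tested genes, and lost genes had a median of 18.2 kb.

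Both counts moved with the scale, the spread estimate and single libraries. After each library was scaled to the same called length, 1280 genes were gained and 1312 lost, as the median of all tested genes then sat at -1.25 percentage points. With the replicate number as a block, which pairs the libraries, they were 2056 and 343. When the fit held only the 6 libraries compared, limma called 0 and 0, with 2353 genes at an unadjusted p under 0.05. Gained genes numbered 725 or 448 without parental replicate 1 or 2, 975 without clone 8 replicate 1, and 953 without clone 11 replicate 1. Lost genes numbered 60 or 256 without parental replicate 1 or 2, and 97 or 100 without replicate 1 or 2 of clone 8. With lists cut to equal length losses outnumbered gains, at 228 against 169. In peaks at a −log10 q of at least 5 only 3 genes were gained and 7 lost. A leave-out that leaves 1 parental library assumes that it varies like the other groups.

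The 12 largest gains in genes of at least 10 kb were at genes of varied roles, with differences of 19.3 to 28.0 percentage points. CTSK, which encodes the osteoclast collagenase cathepsin K (chromosome 1, 150796208 to 150808260), was covered by 10.4% and 0% in the parental line, 40.0% and 29.4% in clone 8, and 32.9% and 30.6% in clone 11. All 4 clone libraries lay above both parental ones, and the difference was 28.0 percentage points (SE 6.21; limma adjusted p = 0.00663). ARGFX, a homeobox factor of the early embryo (chromosome 3, 121567949 to 121590622), was covered by 0% and 0% in the parental line, 22.7% and 22.8% in clone 8, and 18.0% and 23.0% in clone 11. Both parental libraries were thus without a peak in ARGFX, and the difference was 21.6 percentage points (SE 2.84; limma adjusted p = 0.000278). CSRP3, the muscle LIM protein (chromosome 11, 19182030 to 19201983), likewise had no parental peak and was covered by 24.1% and 23.7% in clone 8 and 24.8% and 11.0% in clone 11. Its difference was 20.9 percentage points (SE 3.14; limma adjusted p = 0.000602), and clone 11 replicate 2 was the lowest of the 4.

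CIDEC, which enlarges lipid droplets in adipocytes (chromosome 3, 9866710 to 9880253), was covered by 3.73% and 0% in the parental line, 23.8% and 37.2% in clone 8, and 28.0% and 16.0% in clone 11, a difference of 24.4 percentage points (SE 4.94; limma adjusted p = 0.00389). INHBC, an inhibin subunit and ligand of the TGF-beta family (chromosome 12, 57434784 to 57452062), was covered by 7.47% and 0% in the parental line, 35.5% and 23.9% in clone 8, and 30.3% and 16.7% in clone 11, a difference of 22.9 percentage points (SE 4.15; limma adjusted p = 0.00188). The clones lay wholly above the parental line at both genes. HPCAL4, a neuronal calcium sensor (chromosome 1, 39678648 to 39691433), was already covered by 28.6% and 24.4% in the parental line. In the clone libraries it was covered by 44.2%, 48.7%, 55.8% and 46.0% (limma adjusted p = 0.0189). HPCAL4 lost its call after scaling by called length (difference 5.67 percentage points, adjusted p = 0.718). The others among the 12 were the lymphocyte genes FCRL3 and SLAMF1, described with their families below, the tubulin gene TUBAL3 (a difference of 21.0 percentage points), the growth hormone-releasing hormone receptor GHRHR (20.4), CCDC190 (19.8) and FAM228A (19.3). Of these 12, 9 kept their call after scaling (not FCRL3, HPCAL4 and GHRHR), 8 without parental replicate 1 and 5 without parental replicate 2.

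**Figure D2:**
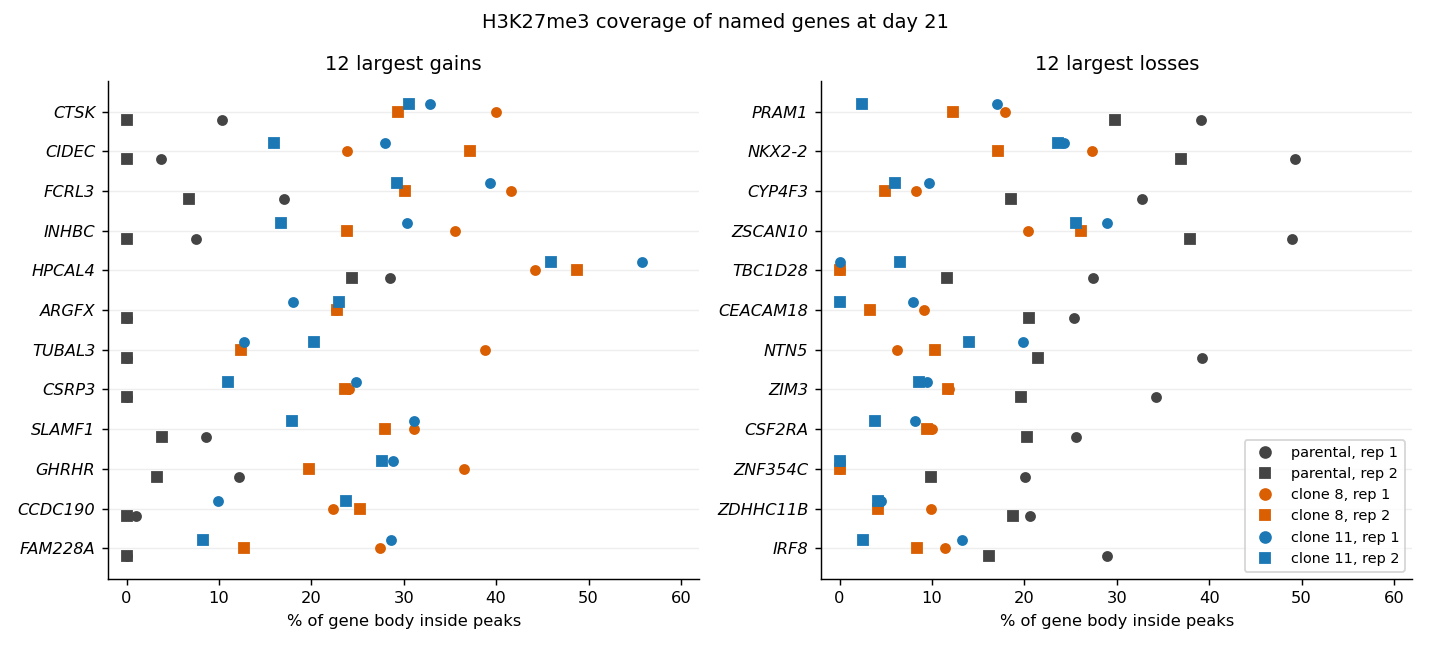
Percent of the gene body inside H3K27me3 peaks for the 12 largest gains (left) and the 12 largest losses (right) among called genes of at least 10 kb whose groups do not overlap; each gene has 6 points, with parental libraries in grey, clone 8 in orange and clone 11 in blue, circles for replicate 1 and squares for replicate 2. The rule chose these genes for the gap between groups, and the plot shows its size, such as 0% in both parental libraries against 18.0% to 23.0% in the clones at ARGFX.

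The largest losses were of genes with sizeable coverage in the parental line, 5 of the 12 on chromosome 19. PRAM1, a signalling adaptor of myeloid cells (chromosome 19, 8490056 to 8502640), was covered by 39.1% and 29.8% in the parental line, 17.9% and 12.3% in clone 8, and 17.0% and 2.42% in clone 11. The clones were lower by 22.0 percentage points (SE 4.47, limma adjusted p = 0.00390). NKX2-2, a homeobox factor of neural and pancreatic development (chromosome 20, 21511017 to 21522689), was covered by 49.3% and 37.0% in the parental line, 27.3% and 17.1% in clone 8, and 24.3% and 23.6% in clone 11. It was lower in the clones by 20.1 percentage points (SE 6.07, limma adjusted p = 0.0385). IRF8, a transcription factor of B and myeloid cells (chromosome 16, 85899162 to 85922609), was covered by 28.9% and 16.1% in the parental line, 11.4% and 8.36% in clone 8, and 13.3% and 2.49% in clone 11. It was lower in the clones by 13.6 percentage points (SE 3.55, limma adjusted p = 0.0174). In each of the 3 genes parental replicate 1 was the highest library and the 4 clone libraries lay below both parental ones. In this order the parental mean was 18.5%, 29.0% and 12.1% at day 0 and 34.4%, 43.1% and 22.5% at day 21. The clone mean was 16.1%, 27.5% and 10.5% at day 0 and 12.4%, 23.1% and 8.88% at day 21. The gaps thus go with higher parental values at day 21 as well as with lower clone values.

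ZNF354C, a zinc finger gene (chromosome 5, 179060373 to 179083977), was covered by 20.1% and 9.94% in the parental line and had no peak in any clone library (limma adjusted p = 0.0304). CSF2RA, the alpha chain of the GM-CSF receptor (chromosome X, 1268814 to 1325218), was lower in the clones by 15.1 percentage points (SE 3.97, limma adjusted p = 0.0184). CSF2RA lies in the pseudoautosomal region, where reads are shared with the copy on Y. ZDHHC11B, of the palmitoyltransferase family, was lower in the clones by 14.0 percentage points (SE 2.67, limma adjusted p = 0.00251). It averaged 3.34% at day 0 and 5.68% at day 21 in the clones, and 15.4% and 19.7% in the parental line. TBC1D28 was lower in the clones by 17.9 percentage points (SE 5.69, limma adjusted p = 0.0488). Both ZDHHC11B and TBC1D28 have near-identical copies, so their reads may be split. The others were CYP4F3, which inactivates leukotriene B4 (-18.4 percentage points), the stem cell zinc finger gene ZSCAN10 (-18.2), CEACAM18 (-17.9), the netrin gene NTN5 (-17.8) and the zinc finger gene ZIM3 (-16.5). All 12 kept their call after scaling, 9 did without parental replicate 2, and 1 did without parental replicate 1, ZDHHC11B.

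Before dTAGV-1 was given, limma called fewer genes between the same clones and the parental line as deposited, after scaling and with lists of equal length. At day 0 limma called 0 genes gained and 0 lost, with 471 at an unadjusted p under 0.05. The day 0 lists were shorter and mostly from shallower libraries. They covered 36.1 to 69.9 Mb in the clones (pileup 0.922 to 2.31), against 83.4 to 153 Mb (1.61 to 2.84) at day 21. In the parental line they covered 76.2 and 39.0 Mb (pileup 2.22 and 1.11). The part of depth and length in the lower counts was not tested. Scaling by called length gave 102 higher and 115 lower before the degrader, against 1280 and 1312 after 21 days. Lists of equal length gave 11 higher and 26 lower, against 169 and 228. The 12 genes of the largest gains had a median difference of -0.514 percentage points at day 0, 14.5 at day 7 and 16.1 at day 14. All 12 were higher in the clones at days 7 and 14, and 7 and 8 of them were called there. These are other libraries of the same lines. The 12 genes of the largest losses had medians of -3.70, -5.81 and -12.2 percentage points at days 0, 7 and 14. All 12 were lower at days 7 and 14, with 1 and 6 called. Over all tested genes 7.64% were gained and 0.2% lost at day 7, and 9.94% and 0.665% at day 14. Day 7 had 1068 genes gained against 28 lost, and day 14 had 1389 against 93. With the replicate block these were 1711 and 68 at day 7 and 1922 and 259 at day 14. Scaling by called length gave 1027 and 1343, and 1401 and 1696.

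The difference between the 2 differences, at day 21 and at day 0, was tested in the same fit. It was positive and called in 270 genes (1.93%) and negative and called in 12 (0.0859%), and with the replicate block in 744 and 45. Without parental replicate 1 or 2 of day 21 the positive count was 24 or 27, and with clone 8 replicate 2 or clone 11 replicate 2 left out 733 or 849. Without replicate 1 of clone 8 or clone 11 it was 128 or 151. The negative count was 50 without parental replicate 2, 6 or 7 without replicate 1 of clone 8 or clone 11, and 21 without clone 11 replicate 2. Of the 12 largest gains CIDEC, FCRL3, INHBC, HPCAL4, ARGFX, CSRP3 and SLAMF1 were called in this test, and of the 12 largest losses 0. NTN5 and ZDHHC11B were lower in the clones already at day 0 (at -20.8 and -12.0 percentage points, not called), so that the excess at day 21 was 3.04 and -1.98.

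The permanent knockout clones with their own parental line gave a separate set of 6 libraries, but not a separate test. Both comparisons came from the same fit, which shares the spread of each gene, and the coverage filter averaged over the knockout libraries as well. Part of the overlap of calls can therefore be built in, and how much was not tested. Of the 1540 genes gained at day 21, 1181 (76.7%) were also gained there, and these were 47.1% of the 2510 genes gained in the knockout (18% of the tested genes). Of the 152 lost genes 16 (10.5%) were also lost, 15.4% of the 104 lost in the knockout (0.744%). In the knockout 3031 genes were gained and 167 lost with the replicate block, and 1515 and 1882 after scaling. Among the 12 largest gains 11 were higher in the knockout clones and 9 were called; HPCAL4 was not higher (-2.41 percentage points, limma adjusted p = 0.879). Among the 12 largest losses 7 were lower and 1, ZSCAN10, was called (-18.9 percentage points, limma adjusted p = 0.00337). PRAM1 and IRF8 differed there by 1.22 and 1.89 percentage points, without a call.

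Taken 1 by 1, clone 8 had 1470 genes gained (10.5%) and 77 lost (0.551%) against the parental line, and clone 11 had 609 gained (4.36%) and 60 lost (0.429%). The 2 comparisons share the parental libraries. With the replicate block the counts were 1971 and 176 in clone 8 and 1025 and 217 in clone 11. Gained genes of clone 8 numbered 876 without parental replicate 1, 518 without parental replicate 2 and 410 without clone 8 replicate 1, and lost genes 179 without parental replicate 2, 16 without clone 8 replicate 1 and 23 without clone 8 replicate 2. Gained genes of clone 11 numbered 110 without parental replicate 1, 107 without parental replicate 2, 141 without clone 11 replicate 1 and 1130 without clone 11 replicate 2, and lost genes 24 without parental replicate 1, 133 without parental replicate 2, 24 without clone 11 replicate 1 and 29 without clone 11 replicate 2. The difference between the clones themselves was called in 16 genes, 13 higher in clone 8 and 3 higher in clone 11, 0.093% and 0.0215% of the tested genes. The largest in genes of at least 10 kb were NEUROD4, TRIM42 and PRDM6, all without coverage over 1.19% in the parental line. NEUROD4, a neurogenic basic helix-loop-helix factor (chromosome 12, 55019974 to 55030017), was covered by 18.8% and 29.9% in clone 8 and by 9.58% and 4.41% in clone 11 (limma adjusted p = 0.0479). TRIM42, of the tripartite motif family (chromosome 3, 140678064 to 140701150), was covered by 22.8% and 19.3% against 7.44% and 1.89% (adjusted p = 0.0347). PRDM6, a PR domain gene of smooth muscle (chromosome 5, 123089241 to 123194266), was covered by 10.4% and 9.91% against 3.48% and 1.80% (adjusted p = 0.00302). The gain at these 3 genes was thus larger in clone 8 in both replicates. Clone 8 also had the deeper libraries, at a pileup of 2.84 and 2.35 against 2.52 and 1.61, and the part of depth in these differences was not tested.

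Genes were then read by group, each list's share of gained and lost members against the 11% and 1.09% of all tested genes. Very long genes, those of at least 500 kb, many of them neuronal adhesion and synapse genes, had the highest share of the 27 lists, with 62 gained and 2 lost of 115 tested (53.9% and 1.74%). After scaling by called length 50 were gained and 12 lost, and without parental replicate 1 or 2 34 or 19 were gained. Of the 314 members 115 passed the filter on mean coverage, and a member with little coverage passes it mainly through libraries where it is high, so 53.9% is a share of those that passed and is shaped by the filter. FSTL4, a follistatin-like gene (chromosome 5, 133196455 to 133842067), was covered by 4.00% and 1.12% in the parental line, 19.6% and 13.4% in clone 8, and 15.9% and 8.87% in clone 11, a difference of 11.9 percentage points (SE 2.51; limma adjusted p = 0.00496). SV2C, a synaptic vesicle protein (chromosome 5, 75847464 to 76353939), was covered by 2.87% and 1.09% in the parental line, 15.4% and 10.8% in clone 8, and 12.6% and 8.31% in clone 11, a difference of 9.81 percentage points (SE 1.65; limma adjusted p = 0.00120). DLGAP2, a postsynaptic scaffold gene (chromosome 8, 737628 to 1708476), went the other way, with 16.2% and 8.03% in the parental line, 5.37% and 2.06% in clone 8, and 3.10% and 1.48% in clone 11. It was lower in the clones by 9.14 percentage points (SE 2.67, limma adjusted p = 0.0321).

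Collagen chain genes had 10 gained and 0 lost of 34 tested (29.4% gained). COL6A6 was covered by 2.02% and 1.15% in the parental line, 12.8% and 10.1% in clone 8, and 13.4% and 9.74% in clone 11, a difference of 9.90 percentage points (SE 1.57; limma adjusted p = 0.000834). COL27A1 and COL28A1 differed by 12.8 and 8.93 percentage points (limma adjusted p = 0.0183 and 0.00110). The list did not move as one, since 18 of the 34 tested members had a positive difference, and after scaling 9 were gained and 12 lost. Without parental replicate 1 or 2, 7 or 5 collagen genes were gained.

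The lymphocyte receptor families on the long arm of chromosome 1 were higher in the clones at every tested member on the deposited scale. SLAM family genes, which encode adhesion receptors of lymphocytes, had 3 gained and 0 lost of 9 tested, and all 9 differences were positive (median 12.6 percentage points, against 0.53 over all tested genes). SLAMF1, the receptor CD150 (chromosome 1, 160608106 to 160647044), was covered by 8.61% and 3.85% in the parental line, 31.1% and 28.0% in clone 8, and 31.1% and 17.9% in clone 11, a difference of 20.8 percentage points (SE 3.44; limma adjusted p = 0.00110). SLAMF6 and CD244 differed by 15.7 and 13.1 percentage points (limma adjusted p = 0.00903 and 0.0194). Fc receptor-like genes, which encode modulators of B cell signalling, had 2 gained and 0 lost of 8 tested, with all 8 differences positive (median 11.9). FCRL3 (chromosome 1, 157676481 to 157700956) was covered by 17.1% and 6.81% in the parental line, 41.6% and 30.2% in clone 8, and 39.4% and 29.2% in clone 11, a difference of 23.1 percentage points (SE 4.81; limma adjusted p = 0.00452). FCRL2 was covered by 8.96% and 1.67% in the parental line, 23.5% and 24.8% in clone 8, and 22.1% and 23.3% in clone 11, a difference of 18.1 percentage points (SE 2.79; limma adjusted p = 0.000698). All 4 clone libraries were above both parental ones at SLAMF1, FCRL2 and FCRL3. After scaling the median differences of the 2 families were 0.990 and 2.29 percentage points, against -1.30 over all tested genes, with 1 member gained in each. Neighbouring genes of a family can lie in 1 peak domain, so members are not independent. Without parental replicate 2, 1 member of each was gained, and without parental replicate 1, 2 members of each.

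Among the lineage lists, monocyte and macrophage genes had 5 gained and 0 lost of 19 tested. The list did not move as one, since 10 of the 19 tested members had a positive difference. CD14, the endotoxin coreceptor, had no peak in the parental line and was covered by 85.8% and 73.1% in clone 8 and 37.9% and 39.0% in clone 11 (limma adjusted p = 0.0345). LYZ, lysozyme, and TLR8, an RNA sensor, also had no parental peak and differed by 13.4 and 9.53 percentage points (adjusted p = 0.00582 and 0.0400). None of these 5 calls stood when either parental library was left out. The 4 genes that mark monocytes had a mean coverage of 15.4% to 47.7% in the clone libraries and 8.46% to 19.9% in the parental ones. Of these markers 2 were called, CD14 and LYZ. CSF1R and MPO were not called and differed by 8.19 and -10.4 percentage points (limma adjusted p = 0.261 and 0.641). The list of B cell genes silenced in plasma cells had 2 gained and 0 lost of 19 tested (10.5% gained, near the 11% of all tested genes). These were the adaptor BLNK at 10.1 and the complement receptor CR2 at 8.23 percentage points. Most of the list went the other way, since 8 of the 19 differences were positive. The median was -3.16 percentage points, and -7.01 after scaling. Fewer members were gained without either parental library. T and NK cell genes had 2 gained and 0 lost of 26 tested, the coreceptor chains CD8A at 15.3 and CD8B at 4.06, and 1 without either parental library. Plasma cell identity genes had 0 gained and 1 lost of 15 tested, the receptor TNFRSF13B (TACI). It was covered by 10.6% and 3.08% in the parental line, 2.29% and 0% in clone 8, and 1.47% and 0% in clone 11. The clones were lower by 5.89 percentage points (SE 1.36, limma adjusted p = 0.00838). At day 0 the gene averaged 1.21% in the clones and 0.631% in the parental line.

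Myeloma and oncogenic signalling genes had 5 gained and 0 lost of 19 tested. TGFA, a ligand of the EGF receptor (chromosome 2, 70447284 to 70553826), was covered by 1.96% and 0.788% in the parental line, 19.5% and 13.8% in clone 8, and 19.7% and 8.50% in clone 11, a difference of 14.0 percentage points (SE 2.65; limma adjusted p = 0.00246). MET, the receptor of hepatocyte growth factor (chromosome 7, 116672196 to 116798377), was covered by 0.318% and 0.379% in the parental line, 8.40% and 3.28% in clone 8, and 7.83% and 6.65% in clone 11, a difference of 6.19 percentage points (SE 1.44; limma adjusted p = 0.00900). PAK1, a kinase downstream of RAC (chromosome 11, 77322017 to 77530009), differed by 4.91 percentage points (SE 0.927; limma adjusted p = 0.00244). All 3 kept their call after scaling, with differences of 9.99, 4.68 and 3.19 percentage points. Of the 5 members, 3 were called without parental replicate 1 and 3 without parental replicate 2. The adhesion list had 1 gained and 0 lost of 16 tested, the hyaluronan receptor CD44 at 5.95 percentage points (limma adjusted p = 0.0229), which was not called after scaling (1.49).

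Epidermal differentiation complex genes, small genes of the skin barrier on chromosome 1, had 8 gained and 0 lost of 52 tested (15.4% gained), and 41 of the 52 differences were positive. LCE3E and LCE1B, of the late cornified envelope, had no parental peak and averaged 87.5% ± 18.3 and 83.7% ± 13.1 in the clones (SD, n = 4; limma adjusted p = 0.00345 and 0.00617). The complex holds near-identical copies, so the reads of single members are uncertain, and 1 or 2 peaks can cover such a gene whole. Without parental replicate 1 or 2, 4 or 1 members were gained. Glutamate and GABA receptor genes had 6 gained and 0 lost of 23 tested, led by GABRR1 (9.76 percentage points, limma adjusted p = 0.00195). Of the 48 members 23 passed the coverage filter, which shapes this share, and 12 of the 23 differences were positive. The median difference over all 48 was 0.0204 percentage points. Fewer members were gained without either parental library. Olfactory receptor genes had 9 gained and 1 lost of 89 tested, near the share of all tested genes, with 2 gained and 1 lost without parental replicate 1 and 1 and 3 without parental replicate 2, and 137 of the 241 on the list had no peak in any of the 6 libraries. Potassium channel genes had 6 gained and 2 lost of 72 tested, and these counts moved when a parental library was left out. KCNG3 gained 11.9 percentage points (limma adjusted p = 0.00179). KCNF1 was covered by 81.3% and 29.4% in the parental line, 0% and 0% in clone 8, and 9.47% and 0% in clone 11. It was lower in the clones by 53.0 percentage points (SE 16.4, limma adjusted p = 0.0427).

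The lists with more members lost than gained included zinc finger, HOX and other developmental regulators, the last 2 by few genes. These 2 lists did not move as one. Of the HOX differences 17 of 35 were positive (median -0.313 percentage points). Of the other developmental regulators 52 of 87 were positive (median 1.88). Zinc finger genes of chromosome 19 had 1 gained and 7 lost of 152 tested, and 51 of the 152 differences were positive. ZNF653 (chromosome 19, 11483429 to 11505839) was covered by 11.4% and 9.50% in the parental line, 3.38% and 3.38% in clone 8, and 3.38% and 2.92% in clone 11. It was lower in the clones by 7.20 percentage points (SE 1.15, limma adjusted p = 0.000862). At day 0 it averaged 3.42% in the clones and 4.10% in the parental line. ZNF577 and ZNF665 differed by -7.47 and -7.24 percentage points (limma adjusted p = 0.0148 and 0.00890). Without parental replicate 1 or 2, 2 or 10 zinc finger genes were lost. HOX cluster genes, which pattern the body axis, had 0 gained and 1 lost of 35 tested, at a median coverage of 20.9% in the clones and 19.2% in the parental line. The lost one was HOXB4, covered by 40.2% and 34.0% in the parental line, 14.8% and 7.81% in clone 8, and 0% and 18.5% in clone 11 (limma adjusted p = 0.0209), and it was not called without either parental library. Other developmental transcription factors had 1 gained and 3 lost of 87 tested, with CDX2 at -18.5 and BARHL2 at 11.7 percentage points, and 0 or 5 lost without parental replicate 1 or 2. Keratin genes had 3 gained and 3 lost of 85 tested, KRT36 at -58.7, KRT9 at -25.3 and KRTAP1-5 at 37.6 percentage points, and without parental replicate 1 or 2 0 were gained and 0 or 1 lost.

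In several lists no member was called. Genes of the Polycomb and H3K36 methylation machinery had 0 gained and 0 lost of 24 tested, genes around the 4p16 breakpoint 0 of 14, and cell cycle inhibitors 0 of 6. Ribosomal protein genes, expressed in every cell, had 0 gained and 1 lost of 71 tested, RPS26, which has many processed copies. The remaining lists lay nearer the 11%: MHC class II genes had 2 gained and 0 lost of 12 tested, chemokine receptors 3 gained and 0 lost of 22 tested, erythroid and endothelial genes 2 gained and 0 lost of 13 tested, Wnt antagonists 1 gained and 0 lost of 12 tested and cadherins 2 gained and 0 lost of 19 tested. Small lists allow only coarse shares. The gained counts of these 5 lists without parental replicate 1 or 2 were 2 or 0, 2 or 1, 1 or 1, 0 or 0 and 1 or 0. After scaling by called length 1280 of all 13930 genes then tested were gained and 1312 lost, so losses became as common as gains in general. Against that background the zinc finger genes had more losses (1 gained and 20 lost), as did the potassium channel genes (5 and 10) and the keratin genes (4 and 9). The collagen genes (9 and 12) and the other developmental transcription factors (1 and 7) did so too. Lists with few members cannot be told from the general shift by these counts. Losses also outnumbered gains after scaling in the B cell list (1 and 3) and the cadherins (2 and 4), while monocyte genes had 4 and 3 and glutamate and GABA receptors 6 and 3. HOX genes had 1 and 4, genes around 4p16 0 and 2, and the Polycomb and H3K36 machinery 0 and 1. With the replicate block, 14 zinc finger, 5 keratin and 5 other developmental genes and 4 very long genes were lost, HOX genes had 2 gained and 2 lost, Wnt antagonists and adhesion genes 3 gained each, the epidermal complex 12 gained, plasma cell genes 1 gained, and monocyte and neurotransmitter receptor genes 1 lost each.

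**Figure D3:**
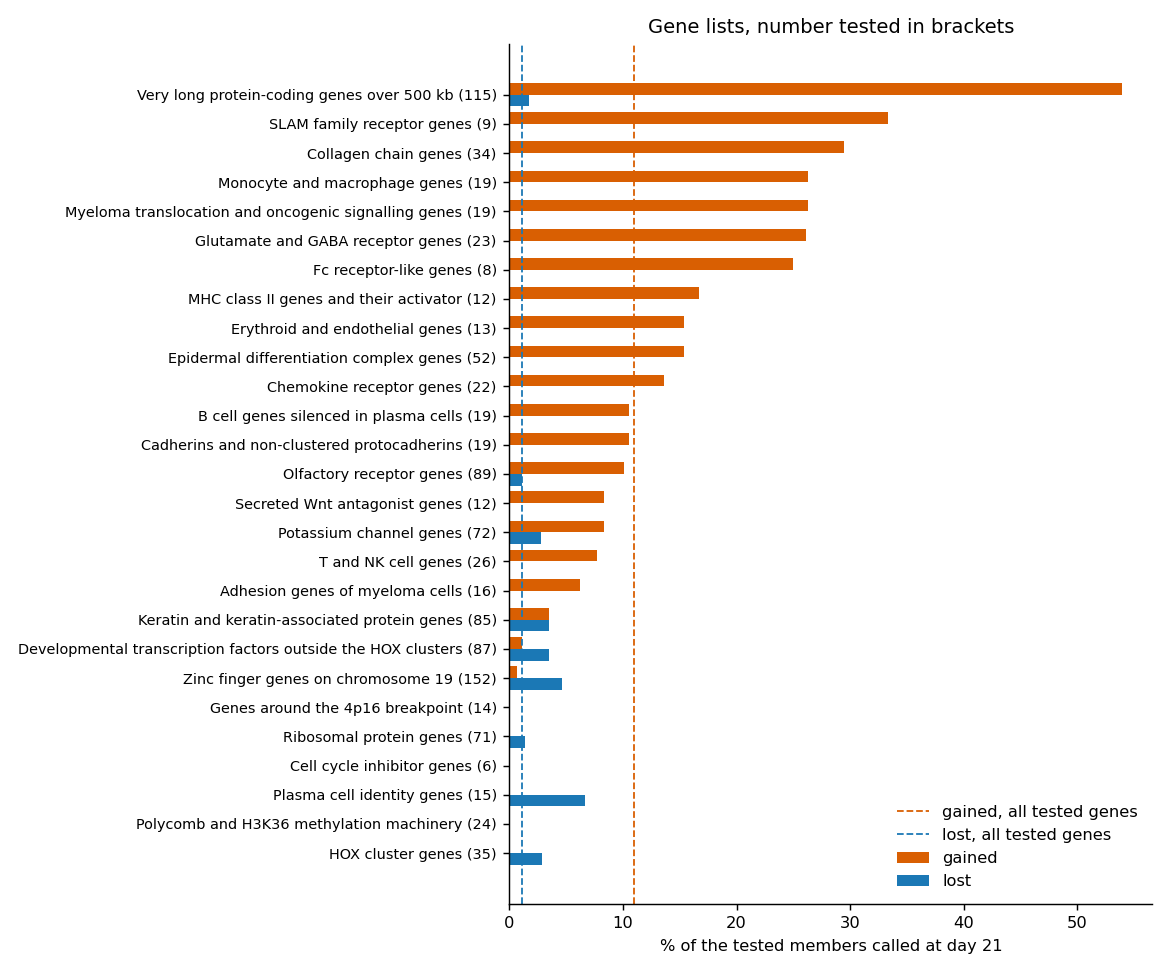
Percent of the tested members of each gene list that limma called gained (orange) or lost (blue) in the clones at day 21, with the number tested in brackets; dashed lines mark all tested genes at 11% gained and 1.09% lost. Very long genes that passed the coverage filter reach 53.9% gained, while HOX, Polycomb machinery and ribosomal protein genes show 0% gained.

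The difference went with how much of a gene was covered before. Genes were ordered by their mean coverage in 8 untreated libraries with NSD2 present, none of which enters the contrast (the knockout parental line and, at day 0, the dTAG parental line and both clones). All 8305 genes under 1% there, tested or not, averaged 0.877% and 0.397% in the parental line and 1.57% to 3.04% in the clones at day 21, a ratio of 3.60 with no overlap. The 5365 genes at 1% to 5% averaged 4.94% and 2.65% in the parental line and 3.93% to 6.59% in the clones, a ratio of 1.39. The 2190 genes at 10% to 25% averaged 25.9% and 15.7% in the parental line and 14.0% to 23.5% in the clones (0.937), and the 313 genes at 50% or more 77.7% and 64.9% in the parental line and 54.8% to 72.1% in the clones (0.915). From 10% upwards the clones were on average below the parental line, and the groups overlapped. Gained calls fell from 33.9% to 0% of the tested genes between the first and the last class. A gene under 1% passes the filter only through libraries where it is high, so that first percentage is not a share of all such genes.

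It also went with gene length. All 5132 genes of 1 to 10 kb averaged 18.5% and 12.5% in the parental line and 11.9% to 18.4% in the clones, a ratio of 1.01. The 1082 genes of 200 to 500 kb averaged 2.38% and 1.17% in the parental line and 2.18% to 4.02% in the clones, a ratio of 1.75, and the 314 genes of 500 kb or more 1.64% and 0.809% in the parental line and 1.45% to 2.73% in the clones, a ratio of 1.71. Gained calls were 2.68%, 6.47%, 24.6%, 46.7% and 53.9% of the tested genes in the classes of 1 to 10, 10 to 50, 50 to 200, 200 to 500 and at least 500 kb. The percent covered of a long gene averages over more peaks and so varies less between libraries, and the part of this precision in the calls was not tested.

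The whole autosomal genome was then read in 25-kb bins. Of 114927 bins 48605 could be tested, and limma called 12925 gained (26.6%) and 609 lost (1.25%). With the replicate block they were 15319 and 1229, after scaling by called length 11041 and 4376. In a fit of the 6 libraries alone they were 0 and 0, with 14080 bins at an unadjusted p under 0.05. Without parental replicate 1 or 2, 5092 or 2793 bins were gained, without replicate 1 of clone 8 or clone 11 8350 or 7963, and lost bins fell to 106 without parental replicate 1. All 4 clone libraries lay above both parental ones in 36.6% of the tested bins and below both in 3.88%. Of the 114927 bins 8883 had a peak in all 4 clone libraries and neither parental one, and 361 had one in both parental libraries and no clone library. These counts are not like for like, since the groups differ in number of libraries and the clone lists were longer on average. At day 0 limma called 0 bins gained and 0 lost, with 682 at an unadjusted p under 0.05, and 144 and 286 after scaling or 26 and 53 with lists of equal length. Beyond day 0 the difference was called positive in 1631 bins (3.36%) and negative in 24 (0.0494%). With the replicate block these were 4072 and 149. The positive count was 0 without parental replicate 1, 0 without parental replicate 2, 910 without clone 8 replicate 1, 5683 without clone 8 replicate 2, 864 without clone 11 replicate 1 and 7307 without clone 11 replicate 2, and the negative count 0 without parental replicate 1, 8 without parental replicate 2, 13 without clone 8 replicate 1, 45 without clone 8 replicate 2, 11 without clone 11 replicate 1 and 68 without clone 11 replicate 2. Without parental replicate 1 or 2, 10929 or 8530 bins had an unadjusted p under 0.05 in this test.

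Relative to the parental line, coverage rose most in bins with little of it earlier. The 87861 bins under 1% in the 8 untreated libraries averaged 0.281% and 0.0896% in the parental line and 1.11% to 2.29% in the clones at day 21, a ratio of 9.07. The 13556 bins at 1% to 5% averaged 5.84% and 3.08% in the parental line and 5.33% to 9.42% in the clones, a ratio of 1.69. In percentage points the difference of the means was larger in this second class (3.07) than in the first. At 10% to 25% the values were 25.6% and 14.7% in the parental line and 12.6% to 22.3% in the clones, and at 25% to 50% 44.9% and 28.4% in the parental line and 22.9% to 38.2% in the clones, ratios of 0.897 and 0.875. The groups were apart only in the first of these 4 classes. Of the tested bins 46.9% were gained in the first class and 0.065% in the last, under the same limit of the filter as for genes.

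Bins without a coding gene averaged 2.06% and 1.02% in the parental line and 2.01% to 3.95% in the clones, a ratio of 1.97 between the group means. Bins wholly inside coding genes averaged 2.72% and 1.37% in the parental line and 2.20% to 4.15% in the clones, a ratio of 1.57, and bins partly inside genes 8.22% and 5.18% in the parental line and 6.16% to 10.4% in the clones, a ratio of 1.27. The groups overlapped in all 3 classes. Gained calls were 35.5%, 26.0% and 17.3% of the tested bins in this order. Among bins without a gene, those within 50 kb of one averaged 4.50% and 2.34% in the parental line and 4.40% to 8.52% in the clones, and those at 500 kb or more 0.170% and 0.0758% in the parental line and 0.190% to 0.403% in the clones. The ratios were 1.94 and 2.30, while the difference in covered percent was 3.21 near genes and 0.160 percentage points far from them.

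The same order appeared along the chromosome. A bin covered by at least 25% in the 8 untreated libraries was taken as strong, a threshold chosen after the data had been seen. The 1537 strong bins averaged 45.0% and 28.5% in the parental line and 23.0% to 38.3% in the clones at day 21, and the bins next to them 24.8% and 13.6% in the parental line and 11.3% to 20.5% in the clones, ratios of 0.875 and 0.864. Bins at 100 to 500 kb averaged 9.67% and 5.27% in the parental line and 5.98% to 10.6% in the clones (1.14). The 89807 bins farther than 2 Mb from any strong bin averaged 1.28% and 0.690% in the parental line and 1.81% to 3.41% in the clones, a ratio of 2.67 with no overlap between the groups. Distance and earlier coverage go together, and they were not separated here.

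**Figure D4:**
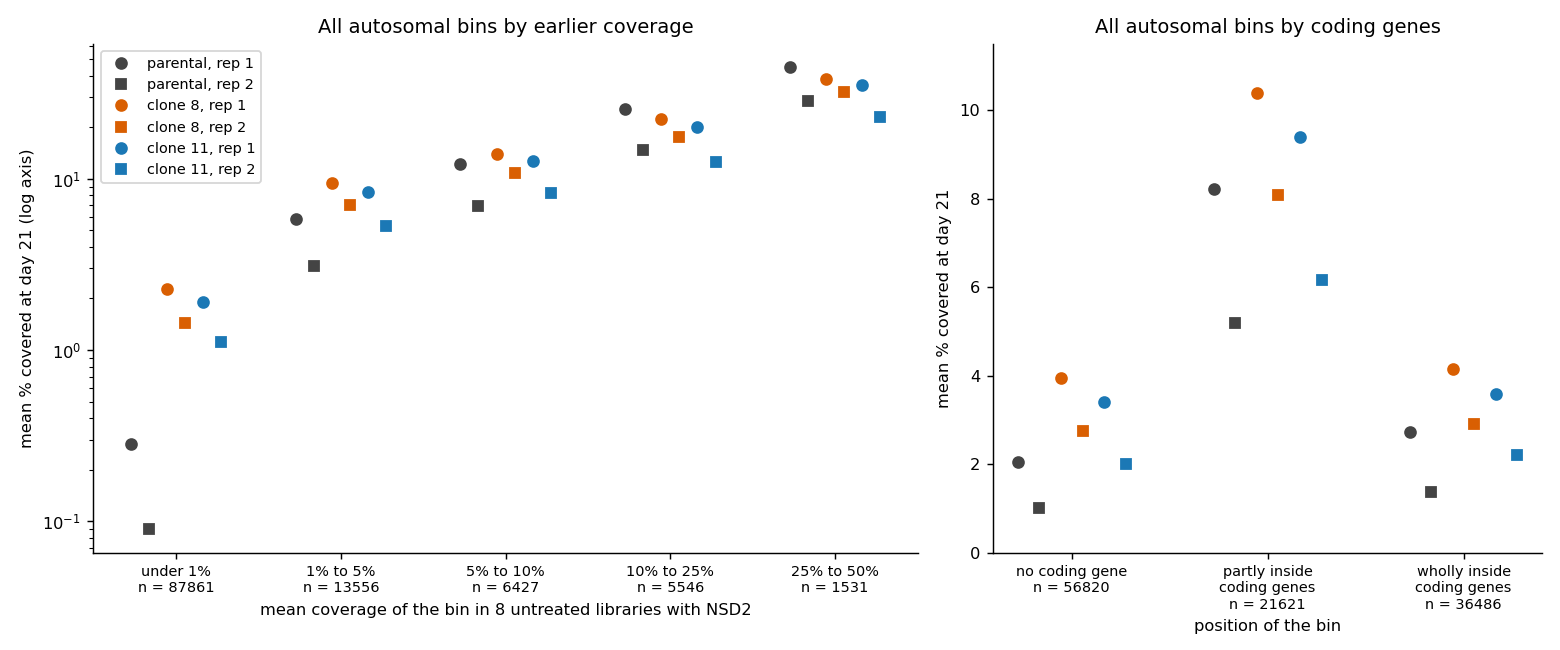
Mean percent of 25-kb autosomal bins covered at day 21 in each of the 6 libraries, with bins grouped by their mean coverage in 8 untreated libraries (left, log axis) and by their place relative to coding genes (right, linear axis); grey is the parental line, orange clone 8, blue clone 11, circles replicate 1 and squares replicate 2. Parental points lie far below the clones in bins under 1%, at 0.281% or less against 1.11% or more, and the groups interleave at 10% and above.

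Chromosomes differed widely. The share of tested bins gained was highest on chromosome 4 (37.5%), followed by chromosomes 5 (35.0%) and 2 (34.1%), and lowest on chromosomes 19 (2.58%) and 22 (7.80%). These shares are shaped by the coverage filter, which 2611 of 7607 bins passed on chromosome 4 and 1704 of 2344 on chromosome 19. Over all bins, tested or not, the ratio of group means was highest on chromosome 18 (2.73). It was 2.37 on chromosome 4 and lowest on chromosome 19 (0.830). On chromosome 4 all bins averaged 1.52% and 0.798% in the parental line and 1.85% to 3.62% in the clones. On chromosome 19 they averaged 12.8% and 7.44% in the parental line and 6.21% to 10.1% in the clones, and there more bins were lost (66) than gained (44). Over the 22 autosomes the gained share ran against the density of coding genes, which is 4.03 per Mb on chromosome 4 and 24.5 on chromosome 19 (Pearson r = -0.748, Spearman rho = -0.702). This is a description over 22 points from the same 6 libraries, the shares are under the same limit of the filter, and chromosomes also differ in base composition.

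**Figure D5:**
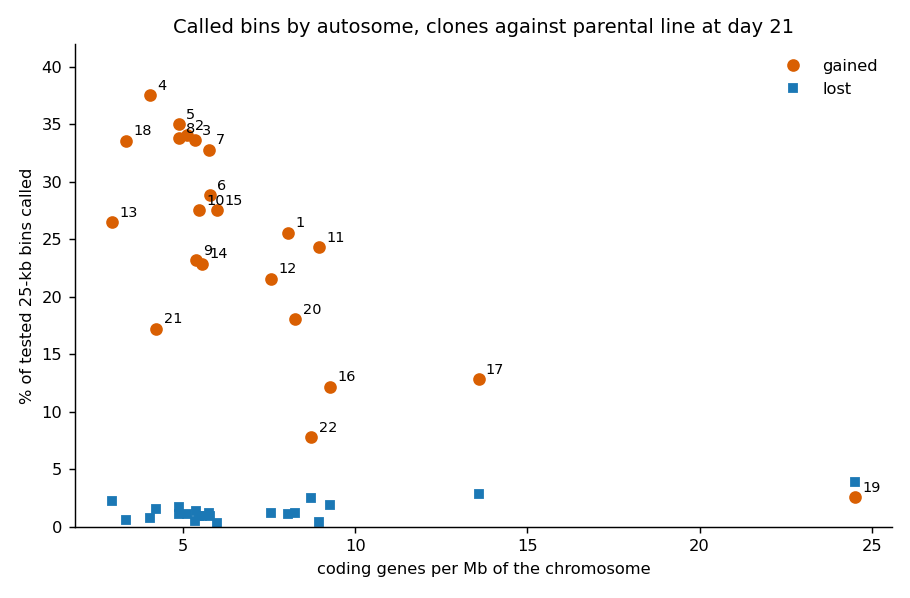
Percent of the tested 25-kb bins of each autosome called gained (orange circles, with the chromosome number) or lost (blue squares) in the clones at day 21, against coding genes per Mb. Gene-poor chromosomes such as 4, at 37.5% gained, lie at the upper left and chromosome 19, at 2.58%, at the lower right.

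The gained bins formed 7203 runs of adjacent bins, of which 4367 were single bins and 35 held 10 bins or more. The longest held 17 bins (chromosome 2, 158025001 to 158450000) over UPP2, a uridine phosphorylase gene, and CCDC148. It was covered by 1.33% and 0.800% in the parental line, 15.3% and 10.1% in clone 8, and 12.9% and 8.50% in clone 11. Each of the next 2 held 16 bins, over GALNT2, which starts O-linked glycans (chromosome 1, 229675001 to 230075000; 2.05% ± 1.47 in the parental line, n = 2, and 13.0% ± 4.57 in the clones, n = 4, SD), and over CAST, the calpain inhibitor (chromosome 5, 95975001 to 96375000; 0.243% ± 0.344 and 8.19% ± 2.43). At day 0 these 3 runs averaged 0.0343% to 0.577% in the clones. The lost bins formed 537 runs, none of 10 bins or more. The longest, of 4 bins each, lay at the adhesion gene SDK1 (chromosome 7, 4175001 to 4275000), in DLGAP2 (chromosome 8, 1450001 to 1550000) and at the Wnt receptor gene FZD10 (chromosome 12, 130150001 to 130250000). At SDK1 the 4 bins were covered by 34.4% and 18.2% in the parental line, 8.16% and 5.71% in clone 8, and 7.33% and 2.12% in clone 11. At day 0 the same bins averaged 14.6% in the clones and 21.9% in the parental line. These runs were chosen for their length among called bins, so their values are a description.

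Few promoters were called. Windows of 300 bases (250 before to 50 after a gene's farthest upstream start, from RefSeq on GRCh38.p14) were at hand for 15411 of the 19447 genes, and 10087 could be tested. limma called 15 gained (0.149%) and 11 lost (0.109%), against 11% and 1.09% of gene bodies. Such a window is mostly covered whole or not at all, so its percent takes few values, groups with no spread are common, and limma's p is less reliable than for genes. The shares of windows and of gene bodies are therefore not like for like, and they do not show that promoters changed less. The counts were 83 and 25 without parental replicate 1, and 15 and 132 without parental replicate 2. Leaving out clone 8 replicate 1 or 2 gave 39 or 63 gained and 19 or 12 lost, and leaving out clone 11 replicate 1 or 2 gave 48 or 73 gained and 55 or 15 lost.

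At the median the gained windows held few CG dinucleotides, the site of DNA methylation that marks CpG islands when dense, but they ranged widely. CG reads the same on both strands, and it occurs at least once in 98.4% of all 15411 windows. The median was 4 CG in the 15 gained windows, 12 in the 11 lost windows and 23 in all tested windows. Single gained windows held from 0 CG (OR10R2) to 50 (RNPC3), with 16 at CKMT2, 21 at WRAP53, 22 at SMIM30 and 27 at CDCP1. The median ratio of observed to expected CG was 0.199 in the gained, 0.651 in the lost and 0.792 in all tested windows. These counts use only the sequence, and the sets are small. Among the gained windows SNCG and CDCP1 had a peak only in clone 8, and WRAP53 only in clone 11. OR10R2 had none in clone 8 replicate 2. Windows of all 1540 gained genes, where the table had one (82.4%), held a median of 17 CG.

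The 250 bases before the start are shown for 4 gained and 2 lost windows, chosen after their values had been seen to set CG-poor sequence (DEFB126, CD180, CCDC190, ZNRF4) beside CG-richer sequence (CKMT2, COMP), with each CG in capitals. They are from RefSeq on GRCh38.p14, and run 5′ to 3′ on the gene's strand. DEFB126, an antimicrobial defensin of the epididymis, lies at chr20:142340-142589 (+ strand) and holds 1 CG. CD180, a Toll-like receptor homologue of B cells, lies at chr5:67196800-67197049 (- strand) and holds 2 CG. CCDC190, a coiled-coil gene, lies at chr1:162861176-162861425 (- strand) and holds 2 CG. CKMT2, the mitochondrial creatine kinase of muscle, lies at chr5:81233072-81233321 (+ strand) and holds 13 CG. COMP, a cartilage matrix protein, lies at chr19:18791306-18791555 (- strand) and holds 19 CG. ZNRF4, a ubiquitin ligase of the testis, lies at chr19:5455167-5455416 (+ strand) and holds 5 CG.
DEFB126: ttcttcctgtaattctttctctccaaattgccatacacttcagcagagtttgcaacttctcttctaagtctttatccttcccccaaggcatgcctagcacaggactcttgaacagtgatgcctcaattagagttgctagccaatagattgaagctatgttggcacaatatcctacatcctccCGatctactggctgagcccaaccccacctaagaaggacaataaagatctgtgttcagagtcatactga
CD180: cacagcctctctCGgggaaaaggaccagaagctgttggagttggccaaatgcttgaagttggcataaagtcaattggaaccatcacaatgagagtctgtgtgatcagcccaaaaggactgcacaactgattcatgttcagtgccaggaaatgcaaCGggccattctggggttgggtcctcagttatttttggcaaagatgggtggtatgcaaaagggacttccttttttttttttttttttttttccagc
CCDC190: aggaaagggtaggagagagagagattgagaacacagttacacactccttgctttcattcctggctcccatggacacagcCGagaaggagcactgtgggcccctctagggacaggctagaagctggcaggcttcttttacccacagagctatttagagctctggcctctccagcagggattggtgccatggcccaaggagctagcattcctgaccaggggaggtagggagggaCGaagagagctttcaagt
CKMT2: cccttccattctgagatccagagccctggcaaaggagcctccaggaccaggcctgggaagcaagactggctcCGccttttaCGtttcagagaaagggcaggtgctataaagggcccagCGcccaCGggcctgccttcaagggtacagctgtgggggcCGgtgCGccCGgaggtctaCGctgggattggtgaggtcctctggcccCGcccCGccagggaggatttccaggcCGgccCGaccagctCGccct
COMP: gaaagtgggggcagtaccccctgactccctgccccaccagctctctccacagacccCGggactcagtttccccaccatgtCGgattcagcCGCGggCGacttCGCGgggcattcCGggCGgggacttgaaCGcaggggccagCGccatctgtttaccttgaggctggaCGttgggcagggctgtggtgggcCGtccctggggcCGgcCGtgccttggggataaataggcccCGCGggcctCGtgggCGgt
ZNRF4: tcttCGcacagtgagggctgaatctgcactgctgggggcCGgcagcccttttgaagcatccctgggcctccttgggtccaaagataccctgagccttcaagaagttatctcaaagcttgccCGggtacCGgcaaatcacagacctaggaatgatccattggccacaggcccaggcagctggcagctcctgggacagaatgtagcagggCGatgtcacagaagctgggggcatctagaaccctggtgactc

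DEFB126, CD180 and CKMT2 had windows covered by 0% in both parental libraries and by 100% in all 4 clone libraries, and CCDC190 by 0% against 97.7% to 100%. The limma adjusted p were 0.00041, 0.000868, 0.0104 and 0.00267. Of these 4 sequences that of CKMT2 has the most CG. None of these 4 windows kept its call after scaling by called length (adjusted p of 0.122 to 0.212), although each kept its direction. COMP and ZNRF4 showed the opposite pattern. The COMP window was covered by 93.7% and 100% in the parental line and by 0% in all 4 clone libraries (limma adjusted p = 4.8e-09). ZNRF4 stood at 100% and 96.3% against 0% (adjusted p = 9.88e-09). Both were also among the windows lower beyond day 0, 2 in all (0.0198% of those tested, against 4 higher, 0.0397%; -96.8 and -98.2 percentage points; limma adjusted p = 1.67e-06 and 3.19e-06), while neither gene body was called (-4.96 percentage points at COMP and -58.4 at ZNRF4; adjusted p = 0.862 and 0.166). In the knockout, whose parental line is another, the windows of COMP and ZNRF4 differed by 0.917 and 0 percentage points.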

How the data were processed

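The authors' deposited files are 1 broad peak list per library on hg38, with a fold (ratio over background), −log10 p, −log10 q and a score per peak, the score being the deposited −log10 q times 10. The submitters' processing notes name Bowtie2, ChIPseeker 1.42.1, deepTools 3.5.1, DESeq2, fastp 0.24.0, MACS3 3.0.2, Picard and SAMtools without roles, with the calling options and any IgG control not given in the sources used here. Per the labels' protocols, each library came from 50000 nuclei and 13 PCR cycles. The percent of each feature under peaks was computed for 19447 RefSeq protein-coding genes of at least 1 kb, 25-kb autosomal bins and 300-base promoter windows. Coverage is the extent of called peaks: a region missing from the list of a shallow library may still hold the mark. Features with mean coverage of 1% to 99% over the 30 H3K27me3 libraries were tested with limma 3.58.1 (R 4.3.3; 15 groups, 15 residual degrees of freedom, variance trend, Benjamini-Hochberg adjusted p under 0.05), the spread thus resting on pairs of libraries. Library values were compared by exact permutation over 15 arrangements (Python 3.11.15). Background pileup was solved from the fold and −log10 p of the shortest 2% of peaks, assuming the caller's pseudocount of 1. Deviations of same-numbered libraries from their group means correlated at 0.213 to 0.351 between the 3 groups of day 21 (0.0335 to 0.558 over all 15 groups). After scaling by called length this was 0.171 to 0.265 (-0.0786 to 0.450 over all 15 groups). The main fit did not pair the libraries, and the replicate number entered only the fits with a replicate block. Scripts were tested on simulated data. Named genes were the 12 largest gains and losses among called, non-overlapping genes of at least 10 kb, up to 3 called members per list, NSD2, FGFR3, CCND2 and the 3 largest differences between clones. Members and lists were chosen with earlier results of these data known. The lists hold no copy number, and 10 libraries (IgG, H3K27ac, H3K4me3) were not analysed here.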

Additional observations from a re-analysis of the deposited data

Results flagged for a closer look

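Among the 81 named genes that could be tested, 15 had a difference between clones and parental line that was higher at day 21 than at day 0, by limma's test of the change itself. The excess in percentage points was 44.4 at HPCAL4, 29.4 at FCRL3, 28.2 at CIDEC, 27.2 at INHBC, 21.8 at SLAMF1, 21.6 at ARGFX, 20.9 at CSRP3, 20.9 at FCRL2, 16.6 at CD8A, 13.8 at ALAS2, 10.5 at SV2C, 10.0 at COL6A6, 8.98 at COL28A1, 5.29 at PRDM6 and 5.24 at PAK1 (limma adjusted p = 0.0172 to 0.0483). At 2 zinc finger genes the change was negative, with -11.6 at ZNF665 and -6.52 at ZNF653 (limma adjusted p = 0.0215 and 0.0475). From day 0 to day 21 ZNF665 went from 5.89% to 1.15% in the clones and from 1.49% to 8.39% in the parental line. ZNF653 went from 3.42% to 3.27% in the clones and from 4.10% to 10.5% in the parental line. At HPCAL4 the clones were below the parental line at day 0, at -22.2 percentage points (limma adjusted p = 0.786).

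The clones differed from each other by 58.4 percentage points at CCRL2, 17.4 percentage points at NEUROD4, 16.4 percentage points at TRIM42 and 7.53 percentage points at PRDM6, each called by limma and higher in clone 8. CCRL2, a chemokine receptor-like gene shorter than 10 kb, was covered by 42.1%, 74.8%, 0% and 0% in the 4 clone libraries, clone 8 first.

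In 11 of the 81 genes 1 of the 4 clone libraries stood far from the rest, measured as its gap to the nearest library divided by the whole range and past Dixon's critical value at the 95% level. The ratio was 0.924 at ARGFX, 0.916 at CSRP3, 1 at TBC1D28, 0.933 at ZDHHC11B, 0.890 at LYZ, 0.844 at HLA-DQA2, 0.847 at CCR3, 1 at KCNF1, 1 at ZNF653, 0.910 at KRTAP1-5 and 0.987 at SPRR2E. The separate library was clone 11 replicate 2 at SPRR2E, where the values were 87.0%, 86.1%, 85.8% and 0%, and clone 11 replicate 1 at KCNF1, with 0%, 0%, 9.47% and 0%. At ZNF653 the gap was small in size, with 3.38%, 3.38%, 3.38% and 2.92%. Chance marks about 1 in 20 groups, and these genes were chosen for their differences between groups, so the number is a description.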

How the results depend on the processing

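Counts that moved by more than 1.5 times were the following, and the cause was not tested. Scaling by called length gave 1312 genes lost, 977 gained in clone 8, 705 lost in clone 8, 963 gained in clone 11, 729 lost in clone 11, 667 gained beyond day 0, 796 lost beyond day 0, 4376 bins lost and 2 promoter windows gained. Lists cut to equal length gave 169 genes gained, 77 gained in clone 8, 124 gained in clone 11, 126 lost in clone 11, 29 gained beyond day 0, 25 lost beyond day 0, 664 bins gained, 48 promoter windows gained and 44 promoter windows lost. Background pileup as a covariate gave 444 genes lost, 353 lost in clone 8, 1255 gained in clone 11, 191 lost in clone 11, 595 gained beyond day 0, 101 lost beyond day 0 and 1478 bins lost. The replicate block gave 343 genes lost, 176 lost in clone 8, 1025 gained in clone 11, 217 lost in clone 11, 744 gained beyond day 0, 45 lost beyond day 0 and 1229 bins lost. The replicate block with background pileup, added after seeing the data, gave 539 genes lost, 396 lost in clone 8, 1263 gained in clone 11, 279 lost in clone 11, 794 gained beyond day 0, 131 lost beyond day 0, 1702 bins lost and 24 promoter windows gained. Peaks at a −log10 q of at least 5 gave 3 genes gained, 7 genes lost, 4 gained in clone 8, 3 lost in clone 8, 2 gained in clone 11, 2 lost in clone 11, 1 gained beyond day 0, 2 lost beyond day 0, 5 bins gained, 4 bins lost, 3 promoter windows gained and 6 promoter windows lost. Peaks with a fold of at least 4 gave 1 genes gained, 6 genes lost, 1 gained in clone 8, 1 lost in clone 8, 0 gained in clone 11, 0 lost in clone 11, 0 gained beyond day 0, 2 lost beyond day 0, 2 bins gained, 10 bins lost, 1 promoter windows gained and 3 promoter windows lost. A filter of 5% to 95% gave 591 genes gained, 51 genes lost, 583 gained in clone 8, 28 lost in clone 8, 191 gained in clone 11, 22 lost in clone 11, 85 gained beyond day 0, 2 lost beyond day 0, 5741 bins gained and 255 bins lost. Joining peaks over gaps of 3 kb gave 480 genes gained, 58 genes lost, 612 gained in clone 8, 37 lost in clone 8, 50 gained in clone 11, 10 lost in clone 11, 1 gained beyond day 0, 0 lost beyond day 0, 3866 bins gained and 247 bins lost. The arcsine scale gave 1107 gained in clone 11, 904 gained beyond day 0 and 23 lost beyond day 0. A fit with no trend gave 25 promoter windows gained. A fit of only the 6 compared libraries gave 0 for genes, bins and promoter windows, gained and lost, in both clones together and in each clone for genes. The replicate block also gave 671 bins lost in clone 8 and 829 in clone 11, and changed no call of a named gene in the comparison of both clones with the parental line at day 21. Lists of equal length turned the balance, with 228 genes lost (91 in clone 8) against 169 and 77 gained. Leaving out 1 library at a time gave 448 to 1964 genes gained, 60 to 256 genes lost, 410 to 1698 gained in clone 8, 16 to 179 lost in clone 8, 107 to 1130 gained in clone 11, 24 to 133 lost in clone 11, 24 to 849 gained beyond day 0, 6 to 50 lost beyond day 0, 2793 to 16085 bins gained, 106 to 719 bins lost, 15 to 83 promoter windows gained and 12 to 132 promoter windows lost.

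The difference in called length was 20.5 to 64.6 Mb when 1 library was left out, and it turned to -11.6 Mb at a −log10 q of at least 5 and to -2.01 Mb at a fold of at least 4. Some genes changed sign, in percentage points. At a −log10 q of at least 5 these were GHRHR (-0.915), CR2 (-0.340) and CD44 (-0.840). Those at a fold of at least 4 were FCRL3 (-4.61), CD244 (-4.83), CR2 (-0.340) and IRF8 (6.01), and the longest gained run stood at -0.00776. With lists of equal length they were NTN5 (5.02), IRF8 (6.01), CR2 (-0.0394) and CD44 (-0.764).

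Depth limits all counts. Estimated pileup ran from 1.48 to 3.26 among the 6 libraries, most of the added length lay in weak peaks, and 2 parental libraries carry one side of every comparison.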
